A study of Mus musculus with 4 samples.

Results

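T-box transcription factors share a DNA-binding domain, the T-box, and were described here through 9 genes: Tbx1, Tbx2, Tbx3, Tbx4, Tbx5, Tbx15, Tbx18, Tbx20 and Tbx22. Members were chosen by symbol, among probe sets annotated with exactly 1 gene symbol, and each of the 9 had a single probe set out of 22180 genes represented on the array. The arrays held RNA from mouse skeletal stem cells (SSCs) isolated from animals aged 4 to 6 weeks and kept in 3D collagen gels for 48 h. The compared groups were Mmp14 knockout (Mmp14-/-, 2 arrays) and wild type (Mmp14+/+, 2 arrays), and both groups went through the same collagen culture. Mmp14 encodes MT1-MMP, a membrane-anchored protease that cleaves collagen. The labels do not name the bone of origin, the sex of the mice, the part of Mmp14 that was deleted, or whether the replicates came from separate animals, so p-values measure the spread between these arrays, which may be technical.

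T-box factors bind related DNA elements and act as activators or repressors, often in combination with homeodomain and GATA proteins. Several are expressed in restricted parts of the embryonic mesenchyme, where they take part in setting up limb, skull, palate, heart and pharyngeal structures. In the skeleton they are known mainly from embryonic patterning and from human malformation syndromes. A bulk array cannot tell fewer cells expressing a gene apart from less RNA per cell.

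Deposited values were log2 intensities. A probe set was called dim in a group when its mean lay below 2.34 log2, the middle value when all rows are ranked by their mean, and genes with a mean over the 4 arrays at or above that line were tested with limma, which left 12708 genes. The arrays correlated at 0.994 between the knockout replicates, at 0.992 between the wild-type replicates and at 0.970 to 0.975 between groups. Mmp14 read 5.77 and 5.84 log2 on the knockout arrays, against 8.77 and 8.83 on the wild-type arrays (difference −2.99, SE 0.103, limma adjusted p = 0.000278). All 14 measured stromal markers, Prrx1 and Pdgfra among them, were at or above the line on all 4 arrays, with summed linear intensities of 7426 to 7795 in knockout and 6644 to 6673 in wild type. Of these 14, 4 were called higher and 2 lower in knockout, while 6.2% of all tested genes were called higher and 5.12% lower. The differences, knockout minus wild type, were 1.81 log2 for Cxcl12, 1.77 for Pdgfra, 1.64 for Postn and 1.46 for Cd200. The knockout arrays of Cd200 were uneven, at 3.89 and 4.71 log2, against 2.72 and 2.96 in wild type (limma adjusted p = 0.0228). Lepr differed by −2.26 log2 and Sp7 by −3.08. Of 8 macrophage and leukocyte markers, 4 (Ptprc, Adgre1, Itgam and Tyrobp) were dim in both groups, and the other 4 (Cd14, Cd68, Csf1r and Lyz2) were above the line on all 4 arrays, with 0 called by limma and 1 at an unadjusted p below 0.05. The endothelial markers were dim in both groups for 6 of 7 genes, Cdh5 included. Of 7 skeletal muscle markers, 4 were tested and 1 was called (Pax7, 1.31 log2). Myod1, Myf5 and Myog were dim in both groups, and Acta1 (0.34 log2), Ckm (0.19) and Des (−0.14) were not called. The summed linear intensities were 104 to 118 in knockout and 81.3 to 88.2 in wild type, with Acta1 the brightest gene. Of 3 Schwann and neural markers, 2 were tested, with 0 called by limma and 1 at an unadjusted p below 0.05. Over all tested genes, 27.5% had an unadjusted p below 0.05. The sums of these 3 markers were 41.0 to 55.6 in knockout and 25.6 to 33.6 in wild type. S100b, the brightest, differed by 1.02 log2, Ngfr by 0.06 and Sox10, dim in both groups, by −0.48. The part of these marker shifts in the T-box values was not tested.

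Of the 9 T-box genes, 3 (Tbx3, Tbx15 and Tbx18) were at or above the line on all 4 arrays. Tbx3 was higher in Mmp14 knockout cells. Tbx18 read lower in knockout cells on every array but did not pass the test, and Tbx15, bright on all 4 arrays, differed by little. The other 6 members lay close to or under the line in both groups. Of the 5 members that entered the test, 1 was called at an adjusted p below 0.05, while 11.3% of all tested genes were called, 6.2% as higher and 5.12% as lower in knockout. That count does not set the T-box genes apart from other genes.

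**Figure D1:**
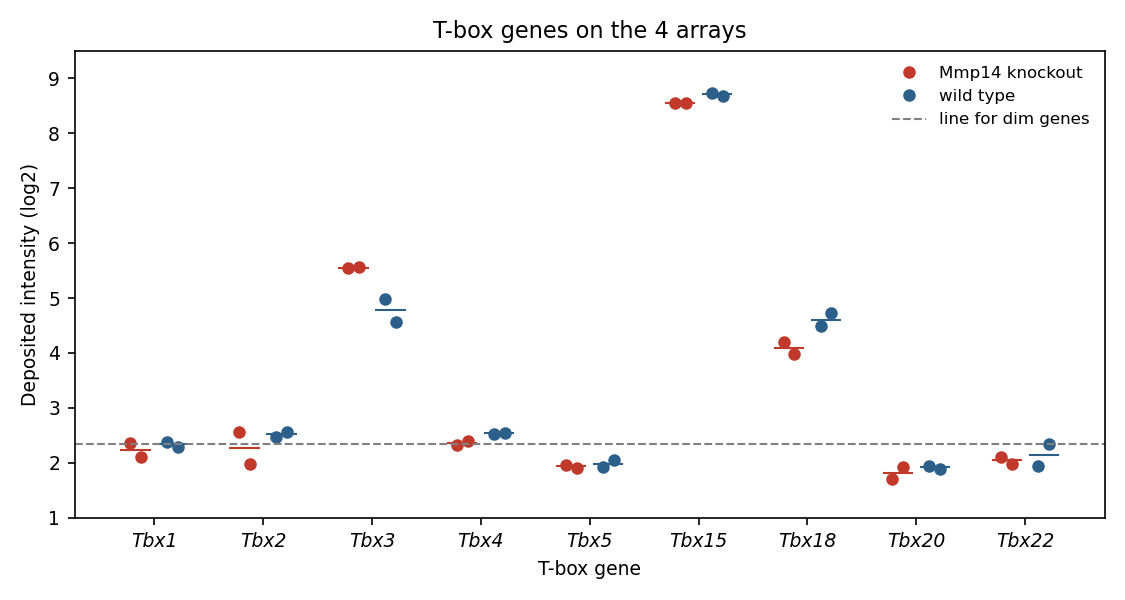
Deposited log2 intensity of the 9 T-box genes, with 2 Mmp14 knockout arrays (red) to the left of 2 wild-type arrays (blue) for each gene. Points are arrays, short bars are group means and the dashed line marks 2.34 log2. The Tbx3 points of the knockout arrays (5.55 and 5.56) lie above both wild-type points (4.99 and 4.57), those of Tbx18 lie below, and the points of 6 genes gather around or under the dashed line.

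Tbx2 and Tbx3 are close paralogs that act mainly as transcriptional repressors, and loss of one TBX3 copy in humans causes ulnar-mammary syndrome, with defects of the posterior limb. Tbx3 measured 5.55 and 5.56 log2 on the knockout arrays, against 4.99 and 4.57 on the wild-type arrays. Both knockout values lay above both wild-type values. The mean was 5.55 ± 0.0048 log2 in knockout and 4.78 ± 0.30 in wild type (SD, n = 2 each). The difference of 0.77 log2 (SE 0.156, 95% interval 0.39 to 1.16, limma adjusted p = 0.0313) put the knockout intensity at 171% of wild type. This change exceeded that of 93.9% of the tested genes in size.

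The replicate spread of Tbx3 was uneven. The knockout arrays were 0.0068 log2 apart, a smaller gap than in all but 3.14% of tested genes, and the wild-type arrays were 0.42 log2 apart, wider than the gap of 91.4% of tested genes. The call was lost when single arrays were left out: without Mmp14 knockout replicate 1 the limma adjusted p was 0.0916, without Mmp14 knockout replicate 2 it was 0.0791, and without wild type replicate 2 it was 0.0614. It held without wild type replicate 1 (adjusted p = 0.0153). The difference ranged from 0.56 to 0.98 log2 over the settings tried, always higher in knockout. When all probe sets were fitted together without a filter, Tbx3 was not called (adjusted p = 0.185).

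**Figure D2:**
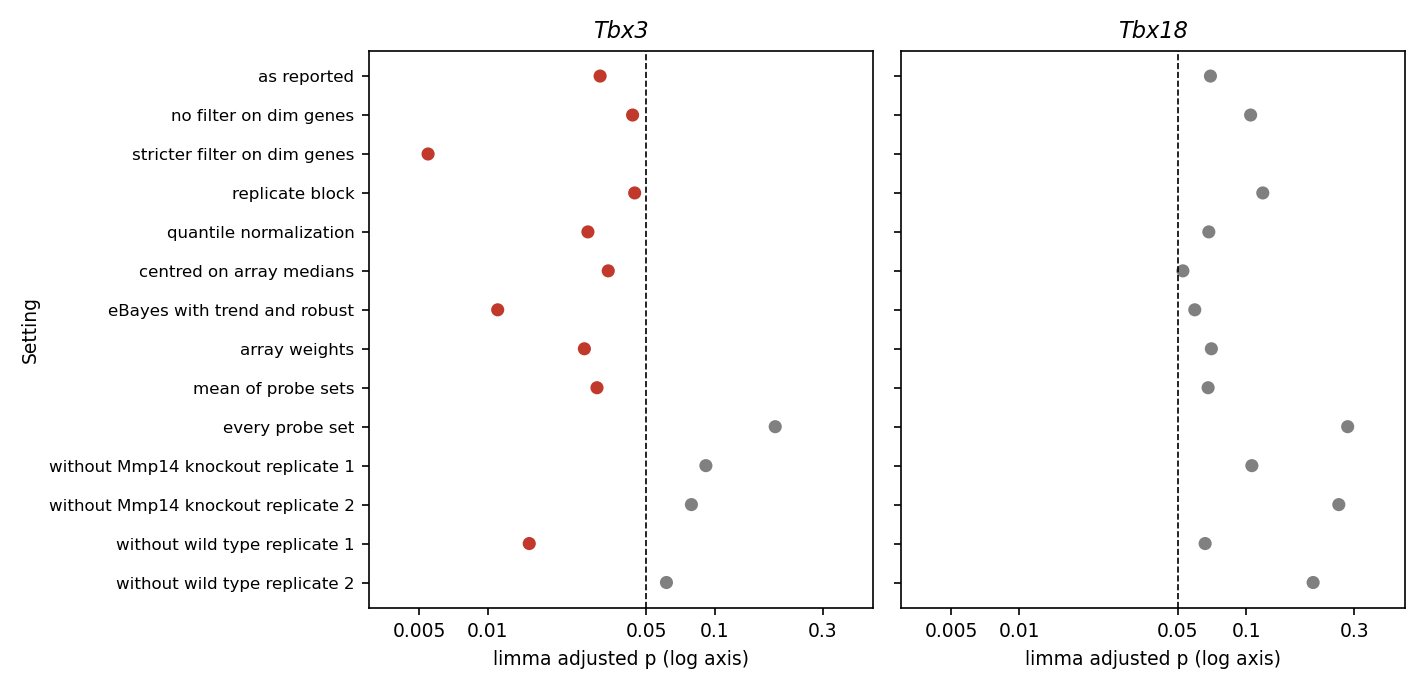
Adjusted p of Tbx3 (left) and Tbx18 (right) under each setting, on a log axis, with the threshold of 0.05 as a dashed line and calls in red. Tbx3 lies left of the threshold as reported (0.0313) and right of it in 4 settings, while Tbx18 lies right of it in every setting drawn.

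Tbx2 gave a weak signal. It read 2.56 and 1.99 log2 on the knockout arrays, against 2.47 and 2.57 on the wild-type arrays. Knockout replicate 2 was low and knockout replicate 1 lay within the wild-type range, so the groups overlapped. The knockout arrays differed from each other by 0.58 log2, more than in 98.0% of tested genes. The difference was −0.25 log2 (SE 0.196, 95% interval −0.72 to 0.23, limma adjusted p = 0.475), with a knockout mean of 2.27 log2 under the line for dim genes. Without knockout replicate 2 the value was 0.043. Tbx2 was therefore not shown to move either with Tbx3 or against it.

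Tbx4 and Tbx5, the other pair of the same subfamily, are known for driving outgrowth of the hindlimb and the forelimb bud, and human TBX5 mutations cause Holt-Oram syndrome. Tbx4 measured 2.33 and 2.40 log2 in knockout cells, against 2.53 and 2.55 in wild-type cells. The groups did not overlap, but all 4 values were within a narrow band around the line for dim genes. The difference was −0.17 log2 (SE 0.102, 95% interval −0.42 to 0.08) and was not called (limma adjusted p = 0.336). Tbx5 was dim on all 4 arrays, at 1.97 and 1.91 log2 in knockout and 1.92 and 2.05 in wild type. It was not tested, and its groups overlapped.

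Tbx15 and Tbx18 belong to the Tbx1 subfamily and are expressed in mesenchyme of the limbs and trunk, where Tbx15 takes part in growth of skeletal elements in the mouse. Tbx15 was measured at 8.56 log2 on both knockout arrays, against 8.73 and 8.68 log2 on the wild-type arrays. The knockout values were lower than both wild-type values by a small margin. The difference was −0.15 log2 (SE 0.101, 95% interval −0.39 to 0.10, limma adjusted p = 0.405), which places the knockout intensity at 90.3% of wild type with an interval of 76.1% to 107%. A change of the size seen for Tbx3 lay outside that interval. Tbx15 was not called under any setting tried, with adjusted p from 0.221 to 0.713.

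Tbx18 is known from the epicardium, the sinus node, the ureter mesenchyme and the cells around vessels. It measured 4.21 and 3.98 log2 in knockout cells, against 4.48 and 4.73 log2 in wild-type cells. Both knockout values lay below both wild-type values. The mean was 4.09 ± 0.16 log2 in knockout and 4.61 ± 0.18 in wild type (SD, n = 2 each), a difference of −0.52 (SE 0.140, 95% interval −0.86 to −0.17). The knockout intensity was 70.0% of wild type, and the size of the difference exceeded that of 87.5% of tested genes. It did not pass the threshold (limma adjusted p = 0.0696), and the adjusted p ran from 0.0526 to 0.280 over the other settings. Non-overlapping groups were found for 4 of the 5 tested members, against 57.8% of all tested genes (28% higher and 29.8% lower in knockout), so this pattern was common on these arrays. Whether Tbx3 and Tbx18 differed from each other in their response was not tested.

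Since Tbx18 is also a gene of mural cells, the pericyte and smooth muscle markers are given beside it. Of 8 measured, 7 were tested, of which 1 was higher (Mcam, 0.69 log2), 1 lower and 5 not called. Rgs5 was the lower gene (−1.07 log2, with −0.07 at a dim second probe set), and Kcnj8 was dim in both groups. Mcam lost its call on leaving out Mmp14 knockout replicate 1 (adjusted p = 0.0801). The summed linear intensity of the 8 genes was 3467 to 3711 in knockout and 3917 to 3944 in wild type. Most of that sum came from Acta2 (−0.14 log2) and Tagln (−0.20), neither of them called, so it says little about the dimmer markers. Of 5 cardiomyocyte and epicardial markers, 3 were tested, with 0 called by limma and 0 at an unadjusted p below 0.05, and Tcf21 was dim in both groups. Over all tested genes, 11.3% were called and 27.5% had an unadjusted p below 0.05. The summed linear intensity of the 5 markers was 27.6 to 27.8 in knockout and 30.9 to 31.4 in wild type. Every value of the 5 lay between 1.85 and 3.34 log2, around the line for dim genes, so this sum says little. The part of either cell type in the Tbx18 values was not tested. Some markers of sex differed between the groups as well. Xist, expressed from the inactive X chromosome, differed by 0.73 log2 (SE 0.117, limma adjusted p = 0.0155) and the Y-linked Eif2s3y by −0.69 log2 (SE 0.161, adjusted p = 0.0474), knockout minus wild type. The Y-linked Kdm5d (−0.42 log2, adjusted p = 0.104) and Uty (−0.25 log2, adjusted p = 0.520, with overlapping groups) were not called. Xist read 9.30 and 9.09 log2 in knockout, against 8.45 and 8.48 in wild type. Eif2s3y read 5.19 and 5.40 in knockout, against 6.18 and 5.79 in wild type. Xist and the Y-linked genes were thus above the line on all 4 arrays. Without Mmp14 knockout replicate 1 neither Xist (0.0801) nor Eif2s3y (0.176) was called, and Eif2s3y also lost its call on leaving out wild type replicate 1 (0.107), on leaving out Mmp14 knockout replicate 2 (0.0648) and with the replicate number as a block (0.0850). Their part in the T-box values was not tested.

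Tbx1, whose human homolog lies in the region lost in DiGeorge syndrome, measured 2.37 and 2.10 log2 in knockout cells, against 2.39 and 2.298 log2 in wild-type cells. Its mean of 2.29 log2 fell just short of the line for testing, whereas the Tbx2 mean of 2.40 log2 just reached it. Tbx20, a regulator of heart development, measured 1.71 and 1.93 log2 in knockout, against 1.94 and 1.89 in wild type. Tbx22, an X-linked gene whose mutations cause cleft palate in humans, read 2.11 and 1.99 log2 in knockout, against 1.94 and 2.35 in wild type. In each of these 3 genes the groups overlapped, and signal at this height says little about whether a transcript was present or changed.

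Among the other T-box genes, 7 had a probe set and 4 were tested. None was called (limma, 0 of 4, also 0 at an unadjusted p below 0.05, against 3500 of all 12708 tested genes at that level), with a median difference of 0.08 log2 against −0.0041 over all tested genes. Mga, a MAX-binding protein that also carries a T-box, was bright, at 7.39 and 7.20 log2 in knockout, against 7.21 and 6.88 in wild type. Its difference was 0.25 log2 (95% interval −0.12 to 0.61, limma adjusted p = 0.347). Tbx10 differed by −0.32 log2, Tbx21 by 0.16 and Tbx6 by −0.0080, all with intervals that included 0. Eomes, Tbr1 and Tbx19 were dim in both groups.

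**Figure D3:**
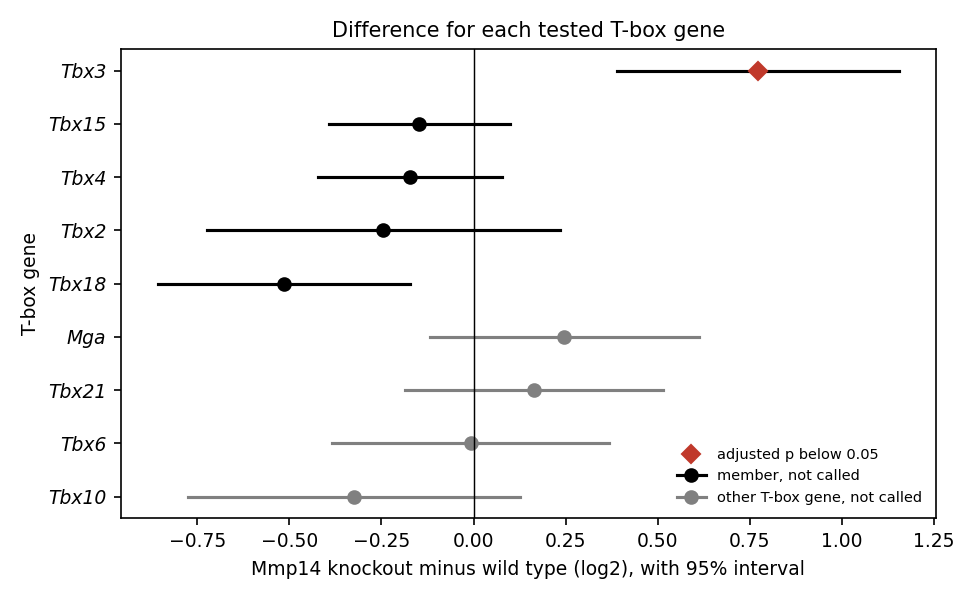
Difference between Mmp14 knockout and wild type (log2) for the 5 tested members (black) and 4 other tested T-box genes (grey), with 95% limma intervals. Tbx3, drawn as a red diamond at 0.77, was the only gene of the 9 drawn that was called, and Tbx18 at −0.52 has an interval below 0 without a call after adjustment.

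Tbx3 and Tbx5 lie next to each other in the genome, as do Tbx2 and Tbx4, which allowed the neighbours to be set beside them. Among 28 protein-coding genes outside the family within 2 positions of a member, 18 were tested, and 1 was called higher and 1 lower, close to the 11.3% of all tested genes. Next to Tbx3, Med13l, a subunit gene of the Mediator complex, measured 8.73 and 8.57 log2 in knockout, against 8.34 and 8.48 in wild type, and was not called (difference 0.24, limma adjusted p = 0.252). On the far side of the Tbx3 and Tbx5 pair, Rbm19 differed by −0.09 log2 (adjusted p = 0.671). The neighbour of Tbx18 that was called was Nt5e, the ectonucleotidase CD73, at 6.57 and 6.99 log2 in knockout, against 5.75 and 5.61 in wild type. Nt5e rose (difference 1.10 log2, limma adjusted p = 0.0119), opposite in sign to the Tbx18 value. The neighbour of Tbx22 that was called, Itm2a, fell by 0.96 log2 (adjusted p = 0.00436), while the Tbx22 means of both groups lay under the line for dim genes.

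Genes with the profile nearest to that of Tbx3 over the 4 arrays, by Euclidean distance between values centred on each gene's mean, were Slc27a6 (distance 0.0438 log2), Ksr1 (0.0480) and Marchf3 (0.0557). Slc27a6 encodes a fatty acid transporter, Ksr1 a scaffold of the ERK pathway and Marchf3 a ubiquitin ligase. Ksr1 measured 3.47 and 3.51 log2 in knockout, against 2.88 and 2.50 in wild type. Slc27a6 had a wild-type mean of 2.05 log2, under the line for dim genes. This distance measures likeness in the size of the differences between arrays, over 4 arrays, as a description.

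Of 16 reported targets of T-box factors with a probe set, 10 were tested, of which 1 rose, 3 fell and 6 were not called, with a median of −0.19 log2. Over all tested genes, 6.2% were called higher and 5.12% lower. Tgfb2, a TGF-beta ligand, measured 7.38 and 7.57 log2 in knockout, against 9.42 and 9.12 in wild type, and fell by 1.80 log2 (SE 0.143, limma adjusted p = 0.00175). Gja1 encodes connexin 43, a gap junction protein. It fell by 0.59 log2 (adjusted p = 0.0360), at 8.34 and 8.59 log2 in knockout, against 9.03 and 9.07 in wild type. Bmp4 fell by 0.70 log2 (adjusted p = 0.0159), at 8.76 and 8.87 log2 in knockout, against 9.61 and 9.43 in wild type. The 6 not called, named after their values were seen, went both ways. They were Has2 (−0.40 log2), Cdkn2a (−0.19), Cdkn1a (−0.19), Cdh1 (0.17), Mef2c (0.18) and Bmp2 (0.37). The part of Tbx3 or other T-box genes in these target values was not tested.

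Fgf10, the limb bud ligand that Tbx4 and Tbx5 activate, measured 3.00 and 2.78 log2 in knockout cells, against 2.37 and 2.08 in wild-type cells, whose mean of 2.22 lay under the line for dim genes. Fgf10 rose by 0.66 log2 (limma adjusted p = 0.0396). A second probe set gave 0.82, at 2.73 log2 in knockout and 1.90 in wild type, the latter also under the line. The call of Fgf10 was lost without Mmp14 knockout replicate 1 (0.163), without Mmp14 knockout replicate 2 (0.0544), and without wild type replicate 2 (0.112). That of Gja1 was lost on leaving out Mmp14 knockout replicate 1 (0.177), wild type replicate 1 (0.0791) or wild type replicate 2 (0.103), and with the replicate number as a block (0.0536). That of Bmp4 was lost without Mmp14 knockout replicate 1 (0.0823) or wild type replicate 1 (0.0503). The call of Tgfb2 held in each of these fits. The part of Tbx4 and Tbx5 in the Fgf10 value was not tested.

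Of partners and cofactors of T-box factors, 14 of 19 were tested, of which 2 fell, 12 were not called and 0 rose, with a median of −0.06 log2. This share of 14.3% lay close to the 11.3% of all tested genes. Gata6, a zinc finger factor that cooperates with T-box proteins in the heart, measured 3.48 and 3.37 log2 in knockout, against 4.67 and 4.87 in wild type. It fell by 1.35 log2 (SE 0.119, limma adjusted p = 0.00228). Tle1, a Groucho-type corepressor, fell by 0.65 log2 (adjusted p = 0.0146), but a dim second probe set gave 0.17. Its call was lost when either Mmp14 knockout array was left out (0.0823 for replicate 1 and 0.0516 for replicate 2), and also without wild type replicate 2 (0.0523).

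Of 28 factors of limb and body position with a probe set, 19 were tested, of which 6 fell, 13 were not called and 0 rose, while 5.12% of all tested genes were called lower. The median was −0.12 log2. At an unadjusted p below 0.05 there were 10 genes, against 27.5% of all tested genes at that level. Of the 10, Meis2 and Pbx2, named after their values were seen, each read 0.38 log2 higher in knockout. Neither was called (limma adjusted p = 0.0874 and 0.0795). Msx2, a BMP-responsive homeobox gene of limb and skull, measured 5.94 and 5.71 log2 in knockout, against 7.29 and 7.77 in wild type, and fell by 1.70 log2 (limma adjusted p = 0.00433). Lmx1b, which specifies the dorsal limb, fell by 0.87 log2 (adjusted p = 0.0123), Prrx2 by 0.81 (0.010) and Irx5 by 0.80 (0.0193). The Irx5 call was lost without Mmp14 knockout replicate 1 (0.0743), wild type replicate 1 (0.0596) or wild type replicate 2 (0.0613). Pitx1, the hindlimb regulator of Tbx4, named here after its values were seen, was dim at 1.99 and 1.97 log2 in knockout, against 2.02 and 2.13 in wild type.

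Hox genes, which mark position along the body axis, were mostly dim: 29 of 36 lay under the line in both groups. Of the 5 tested, 0 were called by limma and 0 had an unadjusted p below 0.05, with a median of 0.03 log2. Over all tested genes, the shares were 11.3% and 27.5%, so 5 genes are too few to tell.

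**Figure D4:**
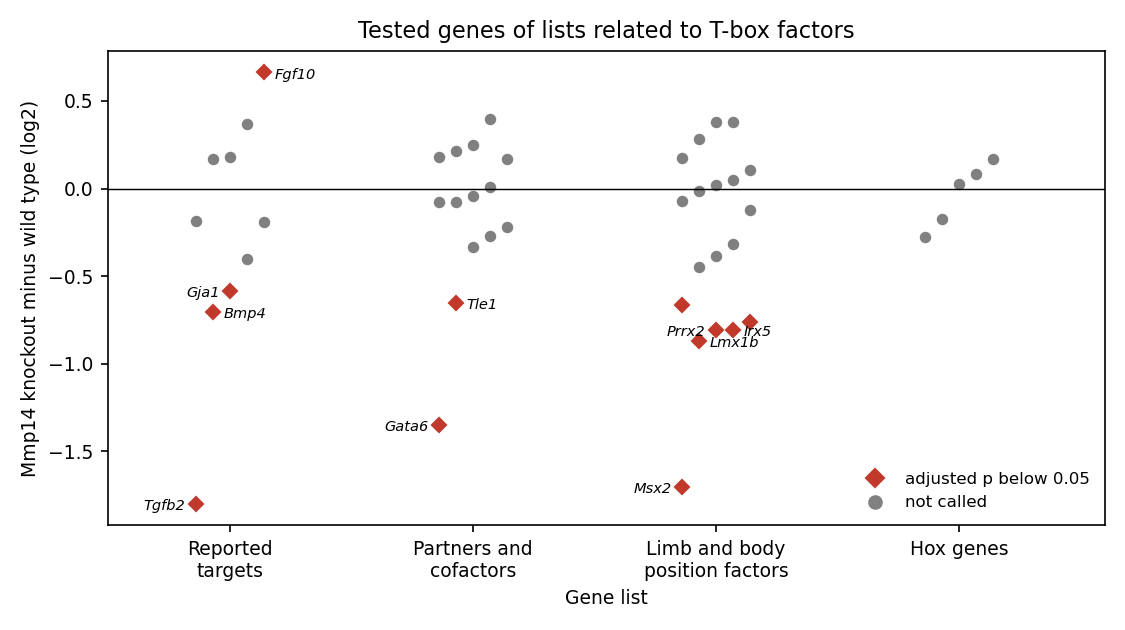
Difference between Mmp14 knockout and wild type (log2) for the tested genes of 4 lists, 1 point per gene spread sideways for legibility, with called genes as red diamonds and up to 4 of them named per list. Fgf10 is the single called gene above 0, and the called genes below 0 reach −1.80 (Tgfb2).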

How the data were processed

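Per the labels' protocols, 10 ng of total RNA was amplified and labelled with biotin, and the series design names Affymetrix arrays. The authors deposited a table of log2 intensities with 41345 probe sets and 4 arrays. According to the submitters' processing notes, limma and oligo were used, with no version or role given. The normalization method was not given in the sources used here, and scanner files were not used here. Array medians were 2.37 and 2.36 log2 in knockout and 2.32 and 2.36 in wild type.

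Of the probe sets, 23521 had exactly 1 symbol. A gene with several probe sets was represented by its brightest one. Knockout minus wild type was fitted with limma 3.58.1 in R 4.3.3 (lmFit, eBayes, two-sided, 2 residual degrees of freedom) over 12708 genes, adjusted by Benjamini and Hochberg, and called below 0.05. The fit was tested on simulated data. The number of arrays limits the precision. Neighbours came from RefSeq for GRCm38.p6, without coordinates, since the sources used here do not give the array's own build.

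The members and lists were chosen with earlier results of these data known. The text names all members, Mmp14, other T-box genes, up to 4 called genes per gene list, some list genes that were not called, and neighbours. For called members it names 3 genes of nearest profile, and markers of cell type and sex are named as well. Alternatives covered the filter, a replicate block, normalization, eBayes settings, array weights, probe set choice, the threshold and each array left out.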

Additional observations from a re-analysis of the deposited data

How the results depend on the processing

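The count of 1439 called genes was 218 when all probe sets were fitted together without a filter, 687 to 1131 when a single array was left out, 459 at an adjusted p below 0.01 and 2365 below 0.10. The count of T-box members called was 1 (Tbx3) as reported. It was 0 with all probe sets together and 0 at an adjusted p below 0.01, with 2 members at an unadjusted p below 0.05 in both limma fits. It was 0 to 1 with an array left out and 2 (Tbx3 and Tbx18) at an adjusted p below 0.10. With an array left out, Tbx2 ran from −0.53 to 0.043 log2, above 0 without Mmp14 knockout replicate 2, and Tbx6 from −0.21 to 0.19, above 0 without Mmp14 knockout replicate 1 (0.0054) and without wild type replicate 2. The cause was not tested. Replicate numbers were taken as names only, since the labels do not say that shared numbers pair the arrays. Deviations of same-numbered arrays correlated at −0.04 across genes. With the replicate block 1057 genes were called and Tbx3 stayed called (adjusted p = 0.0445), while Tbx18 had an adjusted p = 0.118. Quantile normalization and centring on array medians left Tbx3 at 0.75 log2, called in both. Calls of the 3 genes nearest to Tbx3 were lost without Mmp14 knockout replicate 1, without Mmp14 knockout replicate 2 and without wild type replicate 2 (adjusted p = 0.0508 to 0.119). With all probe sets together, the calls of Msx2 (adjusted p = 0.0635), Lmx1b (0.106), Prrx2 (0.0941), Irx5 (0.136), Bmp4 (0.120), Gja1 (0.193), Fgf10 (0.206), Tle1 (0.112), Nt5e (0.106), Itm2a (0.0610), Slc27a6 (0.202), Ksr1 (0.154), Marchf3 (0.208), Xist (0.117), Eif2s3y (0.230), Mcam (0.110) and Rgs5 (0.0976) were lost. Without a filter on dim genes, Fgf10 (0.0578), Gja1 (0.0547), Slc27a6 (0.0532), Marchf3 (0.0560) and Eif2s3y (0.0676) were not called, nor were Fgf10 (0.0529) and Slc27a6 (0.0525) after quantile normalization. The mean of its probe sets put Tle1 at −0.24 log2 (0.231). The calls of Pdgfra, Postn and Cd200 were not followed over these settings.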
